A study of Mus musculus with 6 samples.

Results

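The genes described here take iron into the cell, store it, release it and free it from heme. They are the 10 rows of the count table with the symbols *Tfrc*, *Slc11a1*, *Slc11a2*, *Fth1*, *Ftl1*, *Slc40a1*, *Cp*, *Hmox1*, *Blvrb* and *Ireb2*, out of 24061 gene symbols in all. They were measured by bulk RNA-seq in macrophages sorted from the inguinal mammary glands of FVB/N mice, an inbred strain. The cells carried CD45, CD11b and F4/80 and were split by Lyve-1 into a Lyve-1+ subset, with 3 libraries, and a Lyve-1- subset, also with 3. Each library was made from the pooled glands of 4 mice, and no treatment or transgene was involved. Replicate 1 of each subset came from mice 6 weeks of age and replicates 2 and 3 from mice 10 weeks of age. Lyve-1 is a receptor for hyaluronan, and the comparison addressed whether the cells that carry it differ in gene expression from those that do not.

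Macrophages handle much of the iron of the body because they clear aged red cells and other heme-laden debris. Iron bound to transferrin enters through the transferrin receptor, and iron in heme is set free by heme oxygenase. It is then held in ferritin or leaves the cell through ferroportin, the only known iron exporter of mammals, aided by a ferroxidase such as ceruloplasmin. Many of the transcripts carry an iron-responsive element, a short hairpin bound by the iron regulatory proteins when iron is scarce. In the 5′ untranslated region (UTR) the bound hairpin blocks translation, and in the 3′ UTR it protects the transcript from decay.

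The libraries held between 6478007 and 21406839 counts. Levels are given as CPM, the count scaled to a common library size by TMM, the trimmed mean of M values, and a count of 0 allows a level of between 0.144 and 0.437 CPM (3 counts), a limit that covers counting error only. In Lyve-1- libraries *Lyve1* averaged 5.18 ± 3.27 CPM (SD, n = 3), and in Lyve-1+ libraries it averaged 1245 ± 963 CPM (SD, n = 3), with no overlap. Of the other genes of the sort, *Ptprc* (CD45), *Itgam* (CD11b) and *Emr1* (F4/80) were counted in all 6 libraries, and the summed level of 11 macrophage markers ranged from 9868 to 13899 CPM in the Lyve-1- subset and from 11246 to 13552 CPM in the Lyve-1+ subset. Lyve-1- replicate 3 stood apart, with the fewest counts and 1371 CPM on 1122 olfactory receptor genes, against 10.3 to 276 CPM in the other libraries. The value of 276 CPM was that of Lyve-1+ replicate 1. These libraries also had the most genes with a count, 20353 and 18665, against 11958 to 15087 in the rest. Nothing in the labels says whether the subsets of 1 number were sorted from the same mice. The main test took the libraries as unpaired, and its p-values measure the spread between these pools, with the difference in age included. The tests compared the subsets over all 13348 genes that passed a filter on low counts with edgeR's quasi-likelihood test and Benjamini-Hochberg adjustment. A call required a log2 fold change beyond 1 at an adjusted p under 0.01, and SE is the standard error of that change.

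The sequences that some of the genes share are shown first, because matches to the iron-responsive element were found in genes of import, storage and export. Transcripts of GENCODE M21 on mm10 were searched on the transcribed strand for CNNNNNCAGTGN followed by 5 bases that pair with the 5 before the loop, G-T pairs allowed. *Tfrc* had 4 such sites, all in its 3′ UTR, and *Fth1*, *Ftl1* and *Slc40a1* had 1 each, all in the 5′ UTR. The sites are printed 5′ to 3′ with the loop in capitals.
Tfrc site 1, chr16:32631219-32631248, plus strand: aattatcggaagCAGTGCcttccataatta
Tfrc site 2, chr16:32631598-32631627, plus strand: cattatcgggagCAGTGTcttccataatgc
Tfrc site 3, chr16:32631663-32631692, plus strand: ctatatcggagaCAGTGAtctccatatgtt
Tfrc site 4, chr16:32631710-32631739, plus strand: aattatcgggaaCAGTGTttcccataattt
Fth1, chr19:9982732-9982761, plus strand: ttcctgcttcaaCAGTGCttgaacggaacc
Ftl1, chr7:45459778-45459807, minus strand: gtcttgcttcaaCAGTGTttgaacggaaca
Slc40a1, chr1:45925464-45925493, minus strand: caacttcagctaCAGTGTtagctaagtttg
Such a match was present in the 5′ UTR of 31 of 21877 protein-coding genes (0.142%) and in the 3′ UTR of 129 (0.59%). A match describes the letters in the transcript and was not tested as a binding site here. The search finds only hairpins of this form, so a gene without a match may still have one of another form. Among the other pathway genes, *Alas2*, the erythroid enzyme of heme synthesis, had a match in the 5′ UTR.

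*Tfrc*, *Slc40a1*, *Cp*, *Hmox1* and *Blvrb* were between 2.67-fold and 7.48-fold higher in Lyve-1+ cells, while the ferritin genes, both *Slc11a* transporters and *Ireb2* differed by at most 1.52-fold. Of the 10 genes, 1 was called, *Tfrc*, where 0.112% of all genes tested were called, 0.105% as higher and 0.00749% as lower in the Lyve-1+ subset. At an adjusted p under 0.05 with no limit on the fold change, *Tfrc*, *Slc40a1* and *Hmox1* were higher and no gene of the 10 was lower, where 0.629% of all genes passed, 0.45% as higher and 0.18% as lower. At an unadjusted p under 0.05 there were 5, against 7.69% of all genes. DESeq2 called 3 of the 10, *Tfrc*, *Slc40a1* and *Hmox1*, against 0.952% of all genes called (0.548% as higher), and 4, with *Cp*, were under an adjusted p of 0.05, against 2.16%. The median log2 fold change of the 10 genes was 1.01, beside -0.01 for all genes tested. For 6 of them the Lyve-1+ libraries all exceeded the Lyve-1- libraries, against 7.82% of all genes, and for 0 they all lay below, against 6.5%. *Tfrc*, *Slc40a1* and *Hmox1* are also in the study's own list of differing genes, which was chosen on these libraries and is not independent evidence. In pooled sorted cells, more cells with a transcript and more transcript per cell cannot be told apart.

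**Figure D1:**
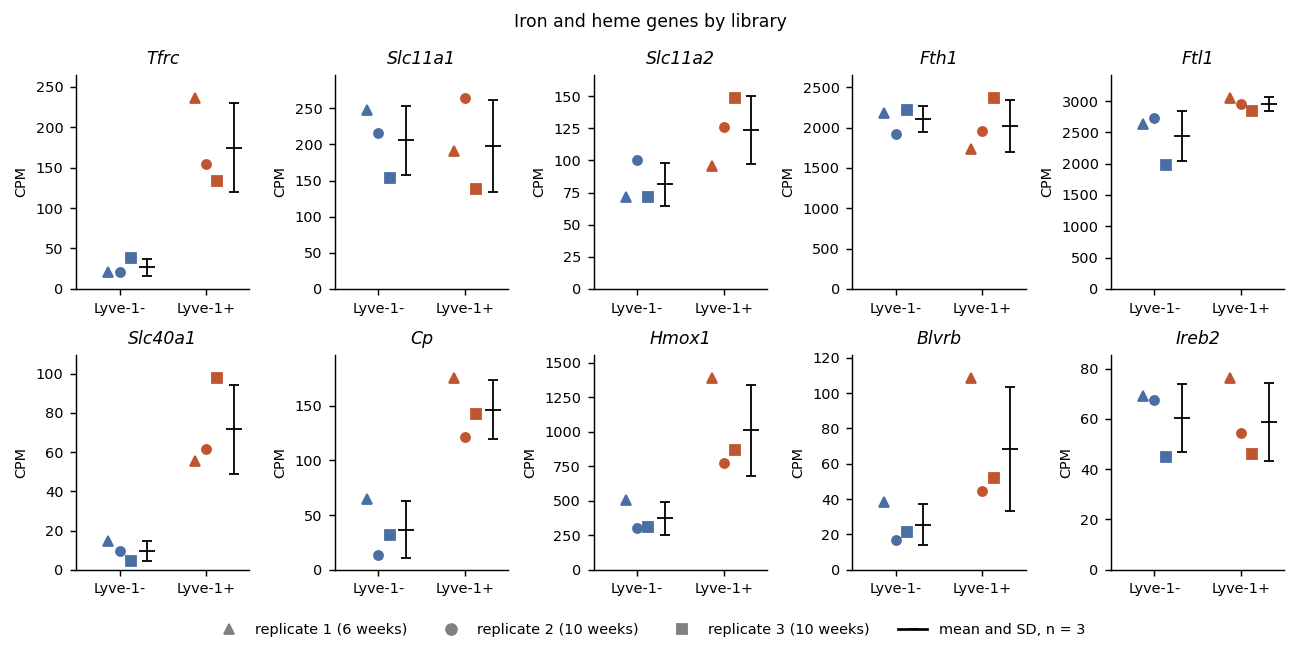
Level in CPM (vertical axis, from 0) of each of the 10 genes in the 3 Lyve-1- and 3 Lyve-1+ libraries, with a symbol for each replicate and the mean with SD beside them. The Lyve-1+ libraries lie above the Lyve-1- libraries without overlap for *Tfrc*, *Ftl1*, *Slc40a1*, *Cp*, *Hmox1* and *Blvrb*, and the subsets overlap for the other 4 genes.

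Among the genes of uptake, *Tfrc* (chromosome 16 of mm10, 32608920 to 32632794, plus strand) encodes transferrin receptor 1, which carries transferrin-bound iron into the cell. It was at 20.8, 20.8 and 38.3 CPM in Lyve-1- replicates 1, 2 and 3 and at 236, 155 and 133 CPM in the Lyve-1+ replicates. The lowest Lyve-1+ library was thus well above the highest Lyve-1- library. *Tfrc* rose by a log2 fold change of 2.72 (SE 0.38, adjusted p = 0.00481 by edgeR), or 6.57-fold. Within the same-numbered libraries the difference was 3.50, 2.89 and 1.79 on the log2 scale. Without Lyve-1- replicate 3, the log2 fold change was larger, 3.07, but the adjusted p was 0.0162 and the gene was no longer called, and in the libraries of 10 weeks alone it was 2.29 (adjusted p = 0.0607).

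The receptor is known to be abundant on dividing cells and on red cell precursors. The summed level of 8 proliferation genes was lower in the Lyve-1+ subset, at 430 to 651 CPM against 778 to 1142 CPM. *Mki67* made up most of each sum and was the 1 gene of the 8 without overlap. Taken singly, 5 of the 8 had a log2 fold change below 0 and 3 had one above 0, so the sum mainly follows *Mki67*. In Lyve-1- replicates 1, 2 and 3 the 9 erythroid markers summed to 0, 0.711 and 29.7 CPM, replicate 3 being the library that stood apart. In the Lyve-1+ subset these markers summed to 0 to 4.11 CPM. Among them, the globin genes *Hba-a1*, *Hba-a2*, *Hbb-bs* and *Hbb-bt* were listed at 0 in all 6 libraries. Such rows cannot tell absent globin reads from reads that were not assigned to them. The parts of dividing cells and of red cell precursors in the *Tfrc* values were not tested.

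The SLC11A proteins move divalent metal ions across membranes, with SLC11A1 (NRAMP1) in the phagosomes of macrophages and SLC11A2 (DMT1) in endosomes, where it passes on the iron that the transferrin receptor brings in. *Slc11a1* (chromosome 1, 74375195 to 74386062, plus strand) was at 248, 215 and 154 CPM in the Lyve-1- replicates and at 191, 265 and 139 CPM in the Lyve-1+ replicates. The subsets overlapped throughout, and the log2 fold change was -0.05 (SE 0.31, adjusted p = 1 by edgeR). *Slc11a2* (chromosome 15, 100387898 to 100425072, minus strand) was at 71.8, 100 and 71.6 CPM in the Lyve-1- replicates and at 96, 126 and 149 CPM in the Lyve-1+ replicates. Only Lyve-1- replicate 2 reached into the range of the Lyve-1+ libraries, and the log2 fold change of 0.60 (SE 0.32, adjusted p = 0.742 by edgeR) did not pass the test. The ratio of the CPM of *Slc11a1* to that of *Slc11a2* was 2.58 ± 0.753 (SD, n = 3) for Lyve-1- cells, higher in each library than the 1.68 ± 0.648 (SD, n = 3) of Lyve-1+ cells, although by little in places (2.14 against 2.11). Per kilobase of transcript *Slc11a1* was the higher one in all 6.

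Ferritin, the store of iron, is a shell of heavy chains, which oxidize iron, and light chains, which help to mineralize it. *Fth1* (chromosome 19, 9980598 to 9985098, plus strand), the heavy chain, was at 2176, 1918 and 2218 CPM in the Lyve-1- replicates and at 1740, 1963 and 2374 CPM in the Lyve-1+ replicates. The ranges overlapped, and the log2 fold change was -0.06 (SE 0.22, adjusted p = 1 by edgeR). *Ftl1* (chromosome 7, 45457944 to 45459884, minus strand), the light chain, was at 2626, 2721 and 1979 CPM in the Lyve-1- replicates and at 3056, 2947 and 2833 CPM in the Lyve-1+ replicates. The Lyve-1+ libraries all exceeded the Lyve-1- ones, but by a narrow margin, and the difference of 0.27 on the log2 scale (SE 0.22, adjusted p = 1 by edgeR) did not pass the test. The ratio of *Ftl1* to *Fth1* overlapped between the subsets, with 1.17 ± 0.265 (SD, n = 3) in Lyve-1- cells and 1.48 ± 0.282 (SD, n = 3) in Lyve-1+ cells. Both genes have processed copies in the genome, and GENCODE M21 names 5 ferritin pseudogenes. Of these names 0 are rows of the table, and older names were not searched. Reads could thus have been split with copies whose counts are not used here.

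*Slc40a1* (chromosome 1, 45908068 to 45926523, minus strand) encodes ferroportin, the iron exporter. It had 173, 110 and 29 raw counts in the Lyve-1- replicates, or 14.5, 9.77 and 4.23 CPM, and was at 55.7, 61.4 and 97.6 CPM in the Lyve-1+ replicates. No library of one subset came near those of the other. The log2 fold change was 2.90 (SE 0.54, adjusted p = 0.0279 by edgeR), or 7.48-fold, the largest of the 10 genes, and it was past 0.05 but not past 0.01. Within the same-numbered libraries it was 1.94, 2.65 and 4.53 on the log2 scale, and pair 3 joined the lowest Lyve-1- and the highest Lyve-1+ library. Without Lyve-1- replicate 3 it was 2.56 (adjusted p = 0.111), and in the libraries of 10 weeks alone it was 3.47 (adjusted p = 0.047).

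*Cp* (chromosome 3, 19957054 to 20009145, plus strand) encodes ceruloplasmin, the copper ferroxidase that readies exported iron for transferrin. It was at 64.9, 13.4 and 31.6 CPM in the Lyve-1- replicates and at 175, 121 and 142 CPM in the Lyve-1+ replicates. All Lyve-1+ libraries were above the Lyve-1- ones. The log2 fold change was 1.99 (SE 0.47, adjusted p = 0.0964 by edgeR), and missed both limits. With age as a second term it was 2.18 (adjusted p = 0.0109). Leaving out Lyve-1- replicate 1, the highest of its subset, gave 2.70 (adjusted p = 0.001) and a call, and leaving out Lyve-1- replicate 2, the lowest, gave 1.60.

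Ceruloplasmin is also a plasma protein made by the liver, and transcripts of hepatocytes were counted in several libraries. The summed level of 8 hepatocyte markers overlapped between the subsets, at 57.4 to 735 CPM in Lyve-1- libraries and 15.3 to 1386 CPM in Lyve-1+ libraries. *Alb*, which encodes albumin, was at 527, 549 and 15.5 CPM in the Lyve-1- replicates and at 61.6, 0.862 and 947 CPM in the Lyve-1+ replicates. The part of hepatocyte RNA in the *Cp* values was not tested. Fibroblast markers moved with the subset. Their sum over 8 genes was 232 to 334 CPM in Lyve-1- libraries and 434 to 1179 CPM in Lyve-1+ libraries, with 7 of the 8 higher and 3 without overlap. The highest sum was that of Lyve-1+ replicate 3, which also had the highest sums of hepatocyte and neutrophil markers of its subset. Without this library the log2 fold changes of *Cp*, *Tfrc*, *Slc40a1*, *Hmox1* and *Blvrb* were 1.99, 2.86, 2.58, 1.51 and 1.55. The part of fibroblast RNA in the results was not tested. The *Cp* locus overlaps *Hps3* on the other strand, which had a log2 fold change of -0.27 (adjusted p = 1 by edgeR).

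*Hmox1* (chromosome 8, 75093621 to 75100589, plus strand) encodes heme oxygenase 1, the inducible enzyme that opens heme to biliverdin, carbon monoxide and free iron. It was at 507, 301 and 308 CPM in the Lyve-1- replicates and at 1389, 776 and 867 CPM in the Lyve-1+ replicates. No Lyve-1- library reached the Lyve-1+ range, and replicate 1, from the younger mice, was the highest in each subset. The log2 fold change was 1.44 (SE 0.30, adjusted p = 0.0428 by edgeR), or 2.71-fold, and the same-numbered libraries differed by 1.45, 1.37 and 1.49 on the log2 scale, the most even of the 5 higher genes. Without Lyve-1- replicate 3 it was 1.32 (adjusted p = 0.213), and in the libraries of 10 weeks alone it was 1.42 (adjusted p = 0.0856).

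*Blvrb* (chromosome 7, 27447978 to 27466144, plus strand) encodes biliverdin reductase B, which reduces flavins and some forms of biliverdin. It was at 38.5, 16.7 and 21.6 CPM in the Lyve-1- replicates and at 108, 44.4 and 52.2 CPM in the Lyve-1+ replicates. The subsets did not overlap, and replicate 1 was again the highest in each. The log2 fold change was 1.41 (SE 0.49, adjusted p = 0.346 by edgeR), close to that of *Hmox1* in size but with a wider error and not past either limit. The ratio of *Hmox1* to *Blvrb* overlapped between the subsets, at 15.2 ± 2.54 (SD, n = 3) in Lyve-1- cells and 15.6 ± 2.49 (SD, n = 3) in Lyve-1+ cells. Without Lyve-1+ replicate 1, the log2 fold change of *Blvrb* was 0.93.

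The other enzymes of these steps had smaller values. *Hmox2*, the constitutive heme oxygenase, had a log2 fold change of 0.50 (SE 0.35, adjusted p = 0.959 by edgeR), and *Blvra*, the main biliverdin reductase, had 0.23 (SE 0.65, adjusted p = 1 by edgeR). The ratio of *Hmox1* to *Hmox2* was 5.33 ± 2.23 (SD, n = 3) in Lyve-1- cells and 10.1 ± 1.27 (SD, n = 3) in Lyve-1+ cells, without overlap.

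*Ireb2* (chromosome 9, 54863789 to 54912530, plus strand) encodes iron regulatory protein 2, which binds iron-responsive elements and is itself broken down when iron is plentiful. It was at 69.1, 67.3 and 44.9 CPM in the Lyve-1- replicates and at 76.1, 54.5 and 45.9 CPM in the Lyve-1+ replicates. The subsets overlapped and the log2 fold change was -0.04 (SE 0.38, adjusted p = 1 by edgeR).

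The order of the genes by level was taken per kilobase of the principal transcript, as CPM per kb. *Ftl1* and *Fth1* led in both subsets, at 2522 ± 417 and 2265 ± 175 (SD, n = 3) in Lyve-1- cells, where their libraries overlapped, and at 3043 ± 115 and 2180 ± 346 (SD, n = 3) in Lyve-1+ cells, where they did not. *Hmox1* came next, at 237 ± 74.5 and 644 ± 211, and *Slc11a1* after it, at 88.8 ± 20.7 and 85.6 ± 27.4. *Slc11a2* and *Blvrb* overlapped in both subsets and traded places, at 26.9 ± 5.47 and 24.9 ± 11.1 in Lyve-1- cells and at 40.8 ± 8.77 and 66.4 ± 34 in Lyve-1+ cells, where *Blvrb* also overlapped *Slc11a1*. In the Lyve-1- subset *Slc40a1* was last, at 2.82 ± 1.53, below *Tfrc* at 5.45 ± 2.07, and the libraries of these neighbours overlapped, as did those of *Cp*, at 9.1 ± 6.49, and *Ireb2*, at 10.5 ± 2.34. In the Lyve-1+ subset the last place was that of *Ireb2*, at 10.2 ± 2.7, and *Slc40a1*, *Tfrc* and *Cp* lay above it at 21.2 ± 6.75, 35.7 ± 11.2 and 36.3 ± 6.73. *Tfrc* overlapped both *Cp* and *Slc40a1*, and all 3 were above the libraries of *Ireb2*.

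**Figure D2:**
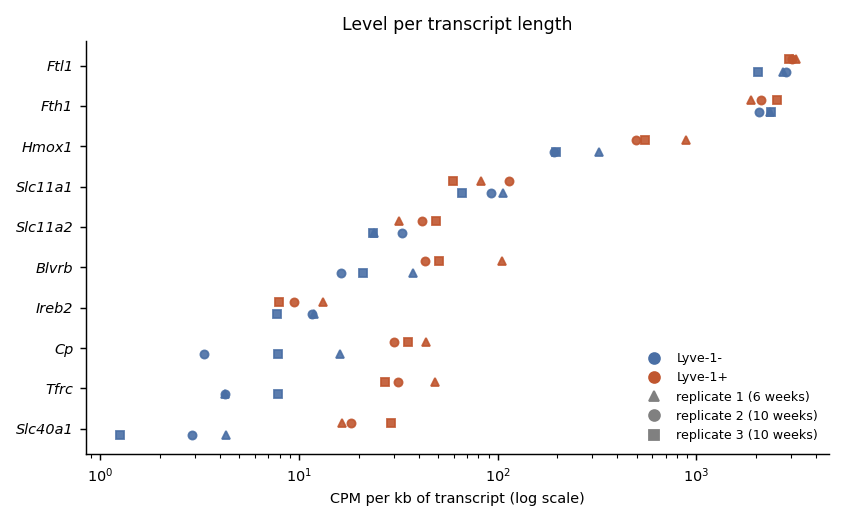
CPM per kb of the principal transcript (horizontal axis, log scale) of the 10 genes in each library, ordered by the mean in Lyve-1- cells. The ferritin genes lie at the right in both subsets, while the means of *Cp*, *Tfrc* and *Slc40a1* are below that of *Ireb2* in Lyve-1- cells, where libraries of *Cp* and *Tfrc* overlap it, and above it in Lyve-1+ cells.

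Ratios within a library set the import and export genes against the ferritin heavy chain, and they were given no test. The ratio of *Tfrc* to *Fth1* was 0.0126 ± 0.00414 (SD, n = 3) in Lyve-1- cells and 0.0902 ± 0.0412 (SD, n = 3) in Lyve-1+ cells, and that of *Slc40a1* to *Fth1* was 0.00456 ± 0.00243 and 0.0348 ± 0.00549. Neither overlapped between the subsets. *Tfrc* and *Slc40a1* were higher together. The ratio of *Tfrc* to *Slc40a1* overlapped, at 4.21 ± 4.22 (SD, n = 3) in Lyve-1- cells and 2.71 ± 1.45 (SD, n = 3) in Lyve-1+ cells. Its value of 9.07 in Lyve-1- replicate 3 set the order of these means, since the mean of the other Lyve-1- libraries was 1.78, below that of the Lyve-1+ subset. Among the 4 genes with a match in the search, *Tfrc* and *Slc40a1* were thus past an edgeR adjusted p of 0.05 and the ferritin genes were not. *Slc40a1* and the ferritin genes have the match in the same UTR. Of 19 other genes tested with a match in the 5′ UTR, 7 were higher and 12 lower in Lyve-1+ cells, with a median log2 fold change of -0.10 and 0 at an edgeR adjusted p under 0.05 (unadjusted p under 0.05 for *Malt1*, named after its value was seen, with a log2 fold change of -1.04). Of 96 others with a match in the 3′ UTR, 42 were higher and 54 lower, with a median of -0.07, and 1 in each direction had an adjusted p under 0.05. These were *Rab11fip5* at 1.78 (adjusted p = 0.0466) and *Cxcl16* at -1.57 (adjusted p = 0.0376), also named after their values were seen.

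**Figure D3:**
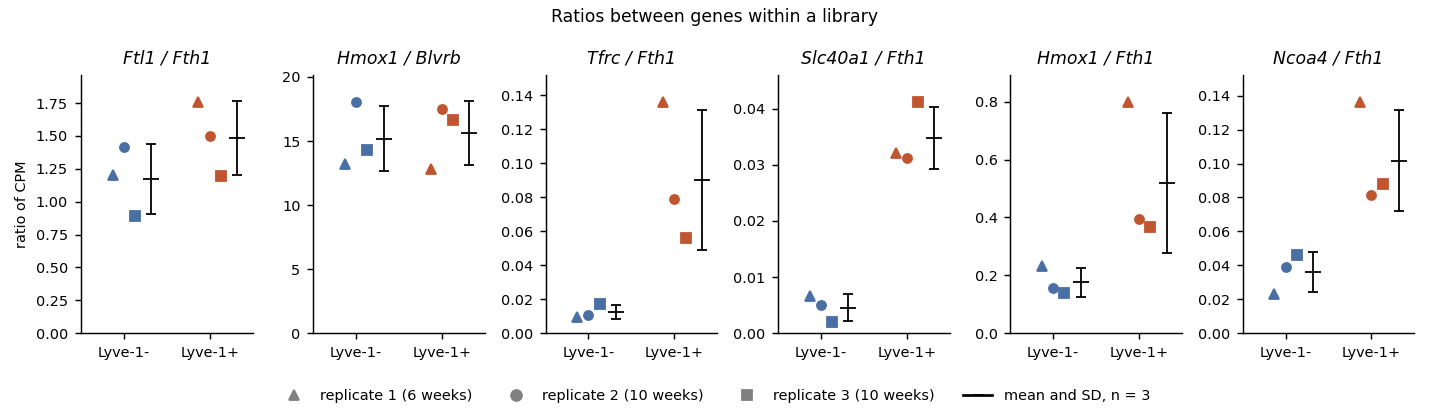
Ratio of the CPM of gene pairs within each library (vertical axes, from 0), by subset, with a symbol for each replicate and the mean with SD. The ratios to *Fth1* of *Tfrc*, *Slc40a1*, *Hmox1* and *Ncoa4* do not overlap between the subsets, whereas *Ftl1* to *Fth1* and *Hmox1* to *Blvrb* do.

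The rest of the pathway was read from a list of 61 further genes, all rows of the table, of which 49 passed the filter. Of these, 27 were higher and 22 lower in Lyve-1+ cells, with a median log2 fold change of 0.05. *Cd163* was the 1 gene called among them, where 0.112% of all genes were called in either direction, and also the only one at an adjusted p under 0.05 by edgeR. It takes up hemoglobin bound to haptoglobin and so feeds heme to heme oxygenase. Its level was 291, 182 and 169 CPM in the Lyve-1- replicates and 1896, 874 and 781 CPM in the Lyve-1+ replicates, a rise of 2.47 on the log2 scale (SE 0.36, adjusted p = 0.00805 by edgeR). The call was lost without Lyve-1- replicate 2 (2.37, adjusted p = 0.0165) and without Lyve-1- replicate 3 (2.32, adjusted p = 0.0707). As for *Hmox1* and *Blvrb*, replicate 1 was the highest of both subsets. *Cd163* is in the study's list chosen on these libraries as well.

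Of the 18 uptake genes tested, 10 were higher and 8 lower. *Steap4*, a metalloreductase, was at 21.1, 7.2 and 17.9 CPM in the Lyve-1- replicates and at 52.4, 83.5 and 82.1 CPM in the Lyve-1+ replicates. The subsets did not overlap, and the log2 fold change was 2.24 (SE 0.50, adjusted p = 0.0611 by edgeR). DESeq2 called it (2.21, adjusted p = 0.00333). *Steap3*, the ferrireductase of the transferrin cycle, overlapped between the subsets at 1.32 (SE 0.53, adjusted p = 0.498). *Trf*, transferrin itself, had 0.39 (adjusted p = 0.98), and *Slc48a1*, which carries heme out of the phagolysosome, had 0.02 (adjusted p = 1). *Ltf* had the lowest value, -1.13 with a standard error of 1.49. In this group 2 genes were higher in all Lyve-1+ libraries, against 7.82% of all genes, and 1 was lower in all of them, against 6.5%. The latter was *Slc39a14*, named after its value was seen, at -1.02 (SE 0.40, adjusted p = 0.481 by edgeR).

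The storage group had 3 genes tested, 2 higher and 1 lower. *Ncoa4*, the receptor that delivers ferritin to the lysosome for release of its iron, was at 50, 75.3 and 102 CPM in the Lyve-1- replicates and at 237, 159 and 208 CPM in the Lyve-1+ replicates. The libraries did not overlap, and the log2 fold change was 1.41 (SE 0.33, adjusted p = 0.0826 by edgeR). DESeq2 called it (1.38, adjusted p = 0.00997), while edgeR gave 1.05 (adjusted p = 0.75) in the libraries of 10 weeks alone. It too is in the study's list chosen on these libraries. *Pcbp2*, an iron chaperone for ferritin, had -0.59 (SE 0.29, adjusted p = 0.693).

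Among 5 export genes tested, 4 were higher and 1 lower. *Abcg2*, a heme and porphyrin transporter, had 1.84 with a standard error of 1.31, and *Mfsd7b* (*Flvcr1*), a heme exporter, had -0.59 (SE 0.40, adjusted p = 0.941 by edgeR). *Heph*, the membrane ferroxidase related to *Cp*, was listed at 0 in 3 libraries and reached 9.68 CPM at most, with a log2 fold change of 0.60 (standard error 2.65). *Hamp*, the hormone hepcidin that degrades ferroportin, did not pass the filter and was listed at 0 in 2 libraries, with a highest value of 5.29 CPM.

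In the regulation group, 6 genes were higher and 7 lower, and none passed an adjusted p of 0.05. *Aco1*, which encodes iron regulatory protein 1, was at 30.9, 30.7 and 35.4 CPM in the Lyve-1- replicates and at 63.8, 64.7 and 74.1 CPM in the Lyve-1+ replicates. The spread within a subset was small and the subsets lay apart, with a log2 fold change of 1.06 (SE 0.38, adjusted p = 0.386 by edgeR). *Fbxl5*, the iron sensor that marks iron regulatory protein 2 for breakdown, had 0.83 (SE 0.40, adjusted p = 0.672), again without overlap. *Nfe2l2* (NRF2) and *Bach1*, the activator and the heme-sensitive repressor of *Hmox1*, had -0.40 and -0.46 (adjusted p = 0.911 and 0.806), and *Spic*, a factor of iron-recycling macrophages in the spleen, had -0.39 (adjusted p = 1). The highest and lowest values were those of *Bmp6* and *Tmprss6*, at 1.72 and -0.99, with standard errors of 2.83 and 2.77. Of the 8 genes of heme synthesis tested, 3 were higher and 5 lower, from *Cpox* at 1.20 (standard error 1.08) to *Uros* at -1.34 (standard error 1.71), and none passed the test.

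**Figure D4:**
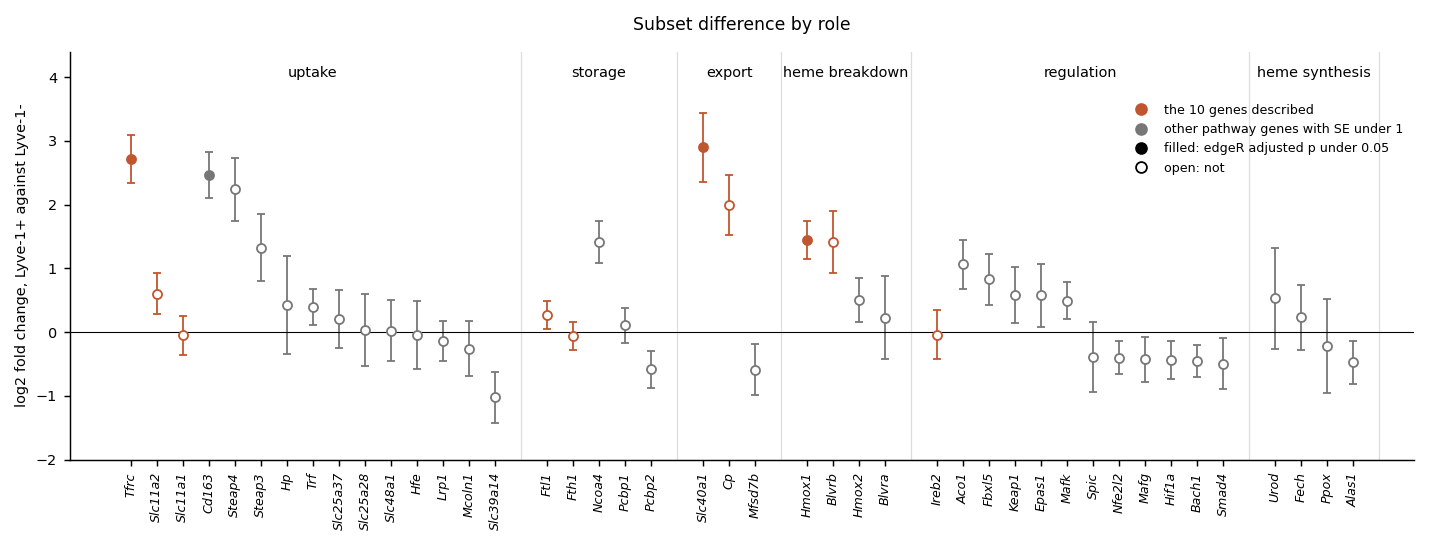
Log2 fold change of Lyve-1+ against Lyve-1- (vertical axis) with its standard error for the 10 genes and the 33 other pathway genes with a standard error under 1, grouped by role, filled where the edgeR adjusted p was under 0.05. The filled points are *Tfrc*, *Cd163*, *Slc40a1* and *Hmox1*, all above 0.

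Beside the fibroblast and proliferation genes, the dendritic cell markers had sums that did not overlap between the subsets, with a sum over 6 genes of 218 to 659 CPM in Lyve-1- libraries and 49.4 to 174 CPM in Lyve-1+ libraries, with 6 of the 6 lower and 2 without overlap. Their part in the iron genes was not tested. The sums of the neutrophil, lymphatic endothelium, mammary epithelium, adipocyte and T and B cell markers overlapped between the subsets, the highest of them being 449 CPM for neutrophil markers in Lyve-1+ replicate 3. Of the 9 neutrophil markers 2 were higher in all Lyve-1+ libraries, *S100a8* and *S100a9* (adjusted p = 0.494 and 0.234 by edgeR, and 0.173 and 0.0271 by DESeq2), and of the 8 epithelial markers 1 was lower in all of them, *Epcam* (adjusted p = 0.588 by edgeR). These 3 were named after their values were seen.

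Age was the other condition in the design, with 1 library of each subset at 6 weeks, so that it cannot be told apart from those pools. With the subset as a second term, 0 genes were called for 10 weeks against 6 weeks by edgeR, 0.0225% had an adjusted p under 0.05 and 3.33% an unadjusted p under 0.05. Of the 10 genes, 3 had such an unadjusted p. These were *Hmox1*, *Cp* and *Blvrb*, with log2 fold changes of -0.75, -1.0 and -1.09 (SE 0.24, 0.40 and 0.43, adjusted p = 1 by edgeR for each). All 3 values were below 0, and none passed the adjusted test. *Tfrc*, *Slc40a1*, *Fth1* and *Ftl1* had values of -0.16, -0.32, 0.12 and -0.12. In the model with an interaction of age and subset, 0 genes were called by edgeR, against 4.59% of all genes at an unadjusted p under 0.05, and 0 of the 10 genes had such a p.

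The 5 higher genes kept their direction over 16 alternatives, 6 of which leave out 1 library each. The log2 fold change of *Tfrc* ran from 2.29 to 3.07, that of *Slc40a1* from 2.56 to 3.47, that of *Cp* from 1.60 to 2.70, that of *Hmox1* from 1.00 to 1.72 and that of *Blvrb* from 0.79 to 1.83. The adjusted p was under 0.05 in 14 of the 16 for *Tfrc*, 14 for *Slc40a1*, 11 for *Hmox1*, 6 for *Cp* and 0 for *Blvrb*. *Fth1*, *Slc11a1* and *Ireb2* changed sign in some of them. Their value farthest from 0 was -0.464, that of *Ireb2* without Lyve-1- replicate 3 and Lyve-1+ replicate 1.

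**Figure D5:**
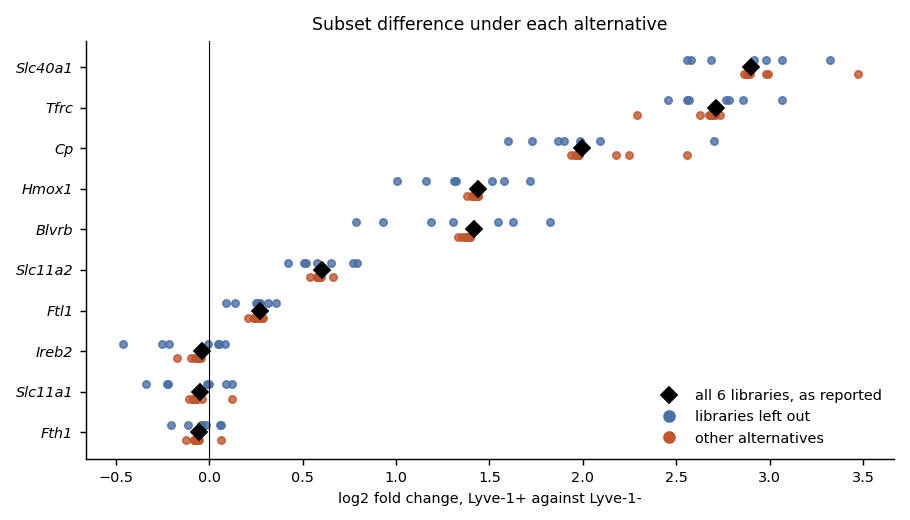
Log2 fold change of Lyve-1+ against Lyve-1- (horizontal axis) for each gene with all libraries (diamonds), with libraries left out (blue) and under the other alternatives (orange). *Slc40a1*, *Tfrc*, *Cp*, *Hmox1* and *Blvrb* lie above 0 throughout, and *Fth1*, *Slc11a1* and *Ireb2* lie on both sides of it.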

How the data were processed

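Bulk RNA-seq libraries of sorted mammary macrophages were made by the authors with a stranded total RNA kit. The authors mapped paired 50-bp reads to mm10 with HISAT2 (version 2.0.2) and counted them with featureCounts (Subread, version 1.5.0 per the labels); the gene annotation and strand setting are not given in the sources used here. The deposited values are raw counts per gene symbol, without normalization. The methods state that genes under 300 bp were dropped and that a 6-week library was removed as an outlier.

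From these counts, genes were kept by filterByExpr, scaled by TMM and tested with edgeR's quasi-likelihood F test (robust) with the subset as the only term. DESeq2, the tool of the study, served as an alternative, beside other scalings and filters, a replicate block, an age term, the 10-week libraries alone and each library left out. Leaving out Lyve-1- replicate 3 and Lyve-1+ replicate 1 together was chosen after seeing the data. A call needed a log2 fold change between 1 and 10 in size at an adjusted p under 0.01. Age was tested beside the subset, and the interaction in a further model. R 4.3.3, edgeR 4.0.16 and DESeq2 1.42.0 were used. The tests were tried on simulated data.

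The 10 genes, the pathway list and the marker lists were chosen with earlier results of these data known. Named genes were the 10 and 14 fixed pathway genes. In each pathway group the largest rise, the largest fall and any gene at an adjusted p under 0.05 were also named. *Steap4*, *Slc39a14*, *Malt1*, *Rab11fip5*, *Cxcl16*, *S100a8*, *S100a9* and *Epcam* were added after their values were seen. Positions, UTRs and transcript lengths came from GENCODE M21 on mm10. Markers *Ahsp* and *Ly6g* had no row in the table. Totals ran from 6478007 to 21406839 counts.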

Additional observations from a re-analysis of the deposited data

How the results depend on the processing

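The number of genes called by edgeR over the whole table was 15, and 1 of the 10 genes and 1 of the other pathway genes were among them. DESeq2 called 151, 3 and 3, the last being *Cd163*, *Steap4* and *Ncoa4*. Without a filter on low counts the numbers were 188, 4 and 3, and with at least 10 counts in every library 32 genes were called in all. With age as a second term 58 genes were called, 2 of them among the 10, *Tfrc* and *Hmox1*. In the 10-week libraries alone 18 genes were called over the whole table and 0 of the 10. At an unadjusted p under 0.05 there were 670 genes and 4 of the 10, and 1 of the 10 had an adjusted p under 0.05. At an adjusted p under 0.05 with no limit on the fold change, 84 genes and 3 of the 10 passed. Leaving out 1 library at a time, the counts ran from 1 to 81 over all genes, from 0 to 4 among the 10 and from 0 to 1 among the other pathway genes. Without Lyve-1- replicate 3 the count was 0 of the 10 and 1 over all genes (5 and 1096 at an unadjusted p under 0.05). Without Lyve-1- replicate 1 it was 4 of the 10 and 65 over all genes. On dropping Lyve-1+ replicate 2 it was 3 of the 10 and 81 over all genes. In a fit chosen after the data were seen, which drops Lyve-1- replicate 3 together with Lyve-1+ replicate 1, edgeR called 0 genes, 0 of the 10 and 0 of the others, with 639, 4 and 5 at an unadjusted p under 0.05. For age, 0 genes were called, 3 had an adjusted p under 0.05, 444 had an unadjusted p under 0.05, and the count ran from 0 to 20 with a 10-week library left out. The causes were not tested.

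The deviations of same-numbered libraries from their subset means had correlations of -0.05, -0.00183 and -0.15 over all genes tested. These values cannot decide whether same-numbered libraries came from the same mice, since the noise of genes with few counts enters them. With the replicate block, 140 genes were called, 4 of the 10 and 2 of the other pathway genes. The 4 were *Tfrc*, *Slc40a1*, *Cp* and *Hmox1* (log2 fold changes of 2.73, 2.99, 2.25 and 1.44, adjusted p = 1.21e-05, 0.00177, 0.000339 and 0.000115 by edgeR), and the others were *Cd163* and *Ncoa4*.

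*Fth1* changed sign, to 0.063, both in the 10-week libraries and in the fit without those 2 libraries, and ran from -0.21 to 0.058 with 1 library left out. *Slc11a1* changed to 0.12 in the 10-week libraries and ran from -0.34 to 0.12 with 1 library left out. *Ireb2* changed sign only on leaving out 1 library, where it ran from -0.25 to 0.081. *Slc11a2*, *Ftl1*, *Slc40a1*, *Tfrc*, *Cp*, *Hmox1* and *Blvrb* kept their direction in every alternative. DESeq2 size factors and total library size moved the log2 fold changes of all genes by a median of -0.03 and -0.07. Summing *Fth1* with *Fthl17*, which had no counts, gave the same value. For *Ftl1* no row bore the GENCODE M21 name of a pseudogene, and older names were not searched. With 29 to 173 counts, *Slc40a1* in Lyve-1- cells was the value most limited by depth.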
